A study of Mus musculus with 4 samples.

Results

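Genes of chromatin modifiers and remodelers were examined in ILC3s sorted from the large intestine of mice treated with α-DR3 or PBS. They were chosen by gene symbol alone, by a pattern that covers lysine demethylases (Kdm), lysine and arginine methyltransferases (Kmt, Setd, Nsd, Ezh, Ash, Prmt), deacetylases (Hdac, Sirt) and acetyltransferases (Kat, Crebbp and relatives). The pattern also covers remodelers (Smarc, Chd, Ino80, Arid, Bptf), readers (Brd, Phf), corepressors and enzymes of DNA methylation (Dnmt, Tet). It matched 34 genes in all. Of these, 18 are in the deposited table of 2179 genes and are counted below, 17 of them with their values. The other 16 were found only in the part used here of the authors' list of all detected genes, which holds 1999 genes, and are named without values: *Arid1a*, *Arid3b*, *Brd8*, *Chd3*, *Chd5*, *Dnmt3l*, *Ezh1*, *Hdac5*, *Kat2b*, *Kdm6b*, *Ncor1*, *Phf21b*, *Phf23*, *Setdb1*, *Sirt2* and *Smarcb1*.

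All mice, controls included, were Rag1-/- littermates, which lack mature T and B cells, and carried a GFP knock-in on 1 allele that marks ILC3s. They received PBS or 1 µg of the agonistic antibody α-DR3 (clone 4C12), which engages the TL1A receptor, and lineage-negative GFP-positive ILC3s were sorted on day 3. Each group had 2 libraries, made from cells pooled over several mice, and the control was PBS, not an isotype antibody. By the study's methods the mice were 6 to 10 weeks old and of both sexes. The deposited table gives 1 mean FPKM per group, the authors' mean of both libraries. FPKM is the number of sequenced fragments scaled to transcript length and library size. The study's list of detected genes, from which only names were taken, also carries values per library, which were not used here. Without them no spread between replicates is given, no difference was tested, and all ratios below describe the authors' means only. Read counts were not used either, so the depth is unknown.

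Chromatin regulators set which genes a cell can use. Methyltransferases, acetyltransferases and their opposing enzymes write and erase marks on histone tails, reader proteins bind those marks, and remodelers of the SWI/SNF kind move nucleosomes with ATP. DNA methyltransferases mark cytosines, and Polycomb complexes keep developmental genes silent. In innate lymphoid cells, as in other lymphocytes, such regulators help to hold a cell's identity and to open cytokine genes on activation.

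The table lists only genes that passed the authors' own comparison, with a p-value under 0.05, and whose mean passed 1 FPKM in PBS or α-DR3. Being listed therefore already required a difference, and the direction of a listed gene is a description. That a gene is not listed does not show that its expression was equal. GENCODE M21 holds 160 protein-coding genes whose symbols fit the pattern, and 17 of them (10.6%) are listed by identifier. Of all 21951 protein-coding genes of GENCODE M21, 9.71% are listed. Both shares, and those set beside 9.71% below, count genes whether or not these cells express them. Listing needed a mean over 1 FPKM, so the shares do not compare how often expressed genes are listed. By family, 3 of 18 Kdm genes, 2 of 5 Dnmt genes, 2 of 8 Prmt genes, 2 of 11 Hdac genes and 2 of 22 Phf genes are listed. None of the 8 Kmt, 10 Chd, 10 Arid, 8 Kat or 8 Brd genes is. The pattern is one of names and also takes in a few genes of GENCODE M21 with other roles, such as *Nsdhl*, a sterol enzyme, and the listed *Sirt3* acts mainly in mitochondria.

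Of the 18 listed chromatin genes, 11 had a lower and 7 a higher mean in α-DR3 than in PBS. Among the 2169 listed genes with both means above 0, 45.4% were lower and 54.6% higher. With a limit of 1.5-fold on the ratio of means, 10 of the 18 chromatin genes were lower and 6 higher, where the whole table had 38.3% lower and 37% higher. The median log2 ratio of α-DR3 over PBS was -0.59 for the chromatin genes and 0.39 for all listed genes. Among the genes given by name, the log2 ratio ran from -1.31 for *Hdac11* to 1.19 for *Prmt6*. Because so few genes are counted and the table holds only genes that passed a comparison, nothing particular to chromatin genes can be read from these shares. When the α-DR3 means were divided by the median ratio over all listed genes, 11 chromatin genes were lower and 2 higher past 1.5-fold, beside 45.2% and 20.98% of all listed genes. When the sparse stretch of ratios between lower and higher listed genes was instead centred on equal means, 8 were lower and 6 higher, beside 32.8% and 40.9%.

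**Figure D1:**
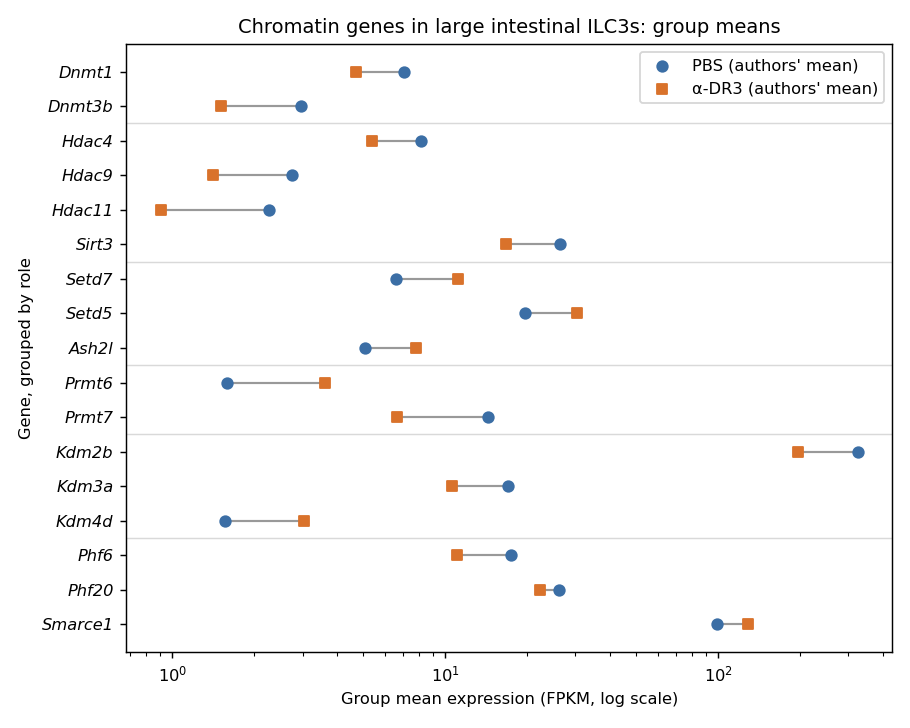
Authors' mean FPKM of each group (horizontal log axis) for 17 listed chromatin genes, grouped by role, with circles for PBS and squares for α-DR3; each mean covers 2 libraries and has no error bar because no single-library value was used. *Kdm2b* lies far to the right of the rest at 324 FPKM in PBS and 195 in α-DR3, and most others lie under 30.

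Levels differed widely between the chromatin genes on the FPKM scale, which corrects for transcript length. In PBS, 5 of them had a mean under 5 FPKM, 9 lay between 5 and 20 and 4 lay above 20. *Kdm2b* was the highest, at place 54 among the 2179 genes of the table ordered by PBS mean. It made up 55.2% of the summed FPKM of the 18 genes in PBS and 41.1% in α-DR3. The sum was 587 FPKM in PBS and 476 in α-DR3. Without *Kdm2b* it was 263 in PBS and 280 in α-DR3, so the order of the sums turned when that gene was left out. That order is for the means as deposited, and the sums were not computed under the other scalings.

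The 3 listed lysine demethylases did not share a direction. *Kdm2b* (ENSMUSG00000029475.11; chr5:122870665-122989823 on the minus strand of GRCm38) encodes a JmjC demethylase with a zinc finger that binds unmethylated CpG sites, and it brings a variant Polycomb complex to CpG islands. Its mean was 324 FPKM in PBS and 195 in α-DR3, 1.66-fold lower. *Kdm3a* (ENSMUSG00000053470.6; chr6:71588972-71632990, minus strand), which removes methyl groups from lysine 9 of histone H3, a mark of silent chromatin, had 17.0 FPKM in PBS and 10.6 in α-DR3, 1.61-fold lower. *Kdm4d* (ENSMUSG00000053914.9; chr9:14462548-14500482, minus strand), another demethylase of that lysine, had 1.56 FPKM in PBS and 3.04 in α-DR3, 1.95-fold higher. After division by the median ratio or by the summed FPKM of all listed genes, the log2 ratio of *Kdm4d* was 0.58 or 0.47, inside 1.5-fold. The abundant demethylases were thus lower, and the one near the table's lower limit of expression was higher.

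*Kdm2b* works in a variant Polycomb complex with *Pcgf1* and *Ring1*, which are both listed outside the symbol pattern. *Pcgf1*, the subunit that defines this variant, had 13.1 FPKM in PBS and 7.26 in α-DR3, 1.81-fold lower. *Ring1*, one of its ubiquitin ligases, had 3.06 FPKM in PBS and 5.07 in α-DR3, 1.66-fold higher. Exons of *Kdm2b* share 627 bases in GENCODE M21 with those of *Rnf34* on the other strand. The authors ran RSEM with default parameters, which do not use strand, so reads in that stretch could belong to either gene.

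Both listed DNA methyltransferases were lower in α-DR3. *Dnmt1* (ENSMUSG00000004099.8; chr9:20907209-20959888, minus strand), which copies methylation to the new DNA strand at replication, had 7.08 FPKM in PBS and 4.70 in α-DR3, 1.51-fold lower. *Dnmt3b* (ENSMUSG00000027478.9; chr2:153649450-153687730, plus strand), which methylates DNA de novo, had 2.95 FPKM in PBS and 1.51 in α-DR3, 1.96-fold lower. *Dnmt1* is a gene of dividing cells above all. Of 20 cell cycle genes looked for, 2 are listed (10.0%, beside 9.71% of all protein-coding genes), and both were lower in α-DR3, as were 45.4% of all listed genes. *Mki67* had 2.27 FPKM in PBS and 1.42 in α-DR3, and *Top2a* had 13.1 and 8.93. Their part in the values of *Dnmt1* was not tested.

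The 4 listed deacetylase genes were lower in α-DR3, as were 45.4% of all listed genes, and 1 of the 4 has an uncertain identity. *Hdac11* (ENSMUSG00000034245.4; chr6:91156665-91174692, plus strand), the only class IV deacetylase, had 2.26 FPKM in PBS and 0.91 in α-DR3, and at 2.48-fold it was the lowest of the 18 ratios. *Hdac9* (ENSMUSG00000004698.8; chr12:34047580-34917095, minus strand), a class IIa deacetylase that shuttles between nucleus and cytoplasm, had 2.75 FPKM in PBS and 1.41 in α-DR3, 1.96-fold lower. *Sirt3* (ENSMUSG00000025486.10; chr7:140863666-140882309, minus strand), an NAD-dependent deacetylase found mainly in mitochondria, had 26.4 FPKM in PBS and 16.7 in α-DR3, 1.58-fold lower. Its exons share 418 bases with *Ric8a* and 342 with *Psmd13*, both on the other strand, and those of *Hdac11* share 594 with Gm44002. The row named *Hdac4*, another class IIa deacetylase, had 8.13 FPKM in PBS and 5.38 in α-DR3, 1.51-fold lower. That row carries the identifier ENSMUSG00000073617.2 with a length of 2392 bases, which GENCODE M21 does not hold. The *Hdac4* gene of GENCODE M21 is ENSMUSG00000026313.16, and that identifier is not listed, so what the row covers is uncertain. Without it, 10 of 17 chromatin genes were lower and 7 higher.

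Other listed genes of deacetylase complexes, taken from a list outside the symbol pattern, numbered 5 of 37 (13.5%, beside 9.71% of all protein-coding genes), with 4 lower and 1 higher where 45.4% of all listed genes were lower. *Rere* had 6.55 FPKM in PBS and 3.27 in α-DR3, and *Tle4*, a Groucho-type corepressor, had 8.16 and 4.76. *Sin3a*, the scaffold of a main deacetylase complex, had 14.0 FPKM in PBS and 9.72 in α-DR3, and its partner *Fam60a* had 23.6 and 16.1. *Tle2* had 5.36 FPKM in PBS and 5.77 in α-DR3, an order that turned under the 3 scalings to listed medians or sums. *Sin3a*, *Fam60a* and *Tle2* lie inside 1.5-fold and were named after their values were seen.

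**Figure D2:**
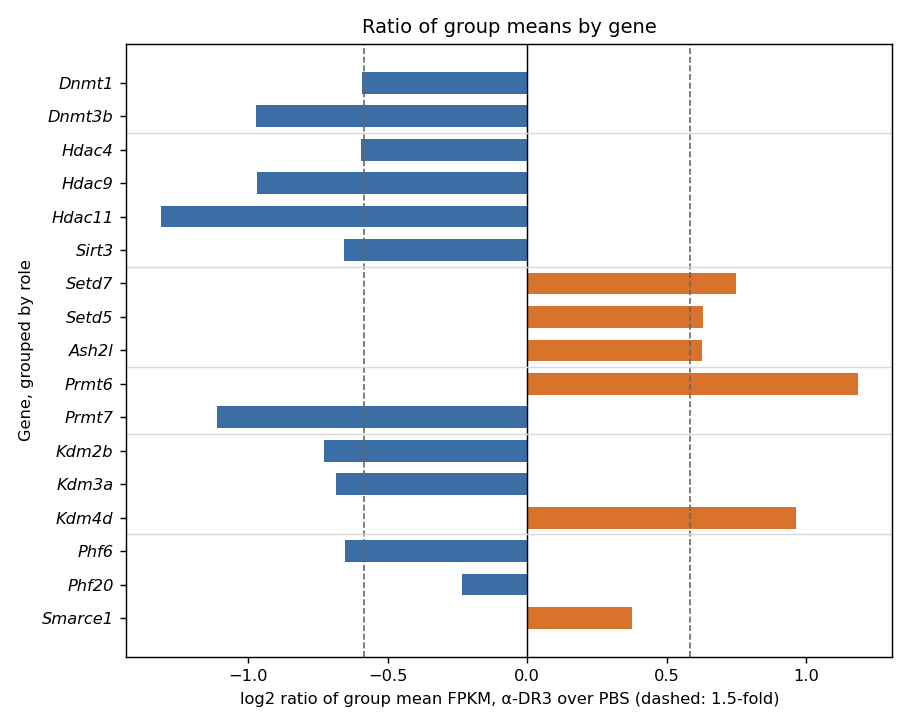
Log2 ratio of the authors' group means, α-DR3 over PBS, for 17 listed chromatin genes in the same order (bars start at 0; dashed lines mark 1.5-fold in each direction). Bars run from -1.31 for *Hdac11* to 1.19 for *Prmt6*, and 11 of them point to the lower side, where 45.4% of all listed genes lie.

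The 3 listed genes of lysine methylation were higher in α-DR3, as were 54.6% of all listed genes. *Setd7* (ENSMUSG00000037111.8; chr3:51515319-51560879, minus strand) encodes an enzyme that adds 1 methyl group to lysine 4 of histone H3 and also methylates transcription factors. It had 6.63 FPKM in PBS and 11.1 in α-DR3, 1.68-fold higher. *Ash2l* (ENSMUSG00000031575.10; chr8:25815996-25847694, minus strand), a shared subunit of the complexes that methylate the same lysine at active promoters, had 5.08 FPKM in PBS and 7.83 in α-DR3, 1.54-fold higher. *Setd5* (ENSMUSG00000034269.6; chr6:113077365-113153435, plus strand), a large SET-domain protein, had 19.6 FPKM in PBS and 30.4 in α-DR3, 1.55-fold higher. When the α-DR3 means were divided by the median ratio over all listed genes, all 3 stayed higher but lay inside 1.5-fold, with log2 ratios of 0.36 for *Setd7*, 0.24 for *Setd5* and 0.24 for *Ash2l*. After division by the summed FPKM they were 0.25, 0.13 and 0.13. Among 25 other methyltransferase genes looked for, 1 is listed (4.0%, beside 9.71% of all protein-coding genes), *Smyd4*, with 7.96 FPKM in PBS and 5.01 in α-DR3.

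The 2 listed arginine methyltransferases pointed in opposite directions. *Prmt6* (ENSMUSG00000049300.8; chr3:110246109-110250998, minus strand) makes asymmetric dimethylarginine on histone H3, a mark that opposes methylation of the neighbouring lysine 4. It had 1.59 FPKM in PBS and 3.62 in α-DR3, 2.27-fold higher. *Prmt7* (ENSMUSG00000060098.5; chr8:106210936-106252794, plus strand), which makes only monomethylarginine, had 14.4 FPKM in PBS and 6.67 in α-DR3, 2.16-fold lower. *Prmt7* thus had the higher FPKM of the pair in both groups, by a smaller margin in α-DR3. Exons of *Prmt6* share 984 bases with the antisense gene C130013H08Rik, and those of *Prmt7* share 247 bases with *Smpd3* on the other strand.

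Of the PHD finger and SWI/SNF genes, 2 were lower and 1 higher in α-DR3, where 45.4% of all listed genes were lower. *Phf6* (ENSMUSG00000025626.9; chrX:52912266-52956943, plus strand), a nuclear PHD finger protein, had 17.4 FPKM in PBS and 11.0 in α-DR3, 1.57-fold lower. *Phf20* (ENSMUSG00000038116.9; chr2:156196466-156309952, plus strand), a reader in an acetyltransferase complex, had 26.1 and 22.2 FPKM, 1.18-fold lower. *Smarce1* (ENSMUSG00000037935.9; chr11:99209047-99231017, minus strand), a DNA-binding subunit of SWI/SNF, had 98.9 FPKM in PBS and 128 in α-DR3, a log2 ratio of 0.38. The direction of *Smarce1* turned when the α-DR3 means were divided by the median ratio or by the summed FPKM of all listed genes. *Phf20* and *Smarce1* were the only genes of the 18 inside 1.5-fold. *Dnmt1* and *Hdac4* among the lower genes and *Ash2l* and *Setd5* among the higher genes lay just past that limit. GENCODE M21 holds a processed pseudogene of *Phf20* and of *Smarce1*, whose reads may be shared with the gene.

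**Figure D3:**
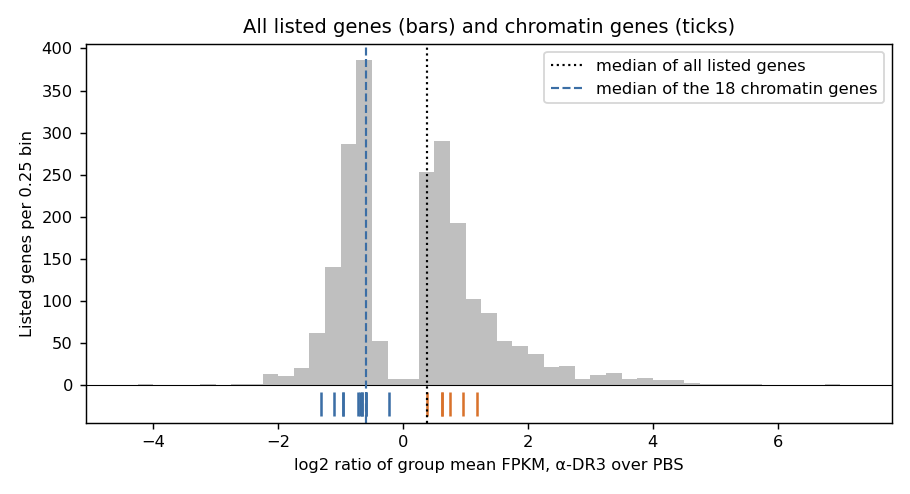
Number of listed genes (vertical axis) per 0.25 of log2 ratio of group means, α-DR3 over PBS (horizontal axis), for the 2169 genes with both means above 0, with ticks for 17 chromatin genes beneath; the dotted line marks the median of all listed genes at 0.39 and the dashed line that of the 18 chromatin genes at -0.59. The bars form a lower and a higher hump with few genes between, so a median depends on how many genes each hump holds.

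FPKM rests on the transcript length that the authors' quantification assigned to each gene. The table's mean CPM (counts scaled to library size, over all 4 libraries) divided by the mean FPKM gives roughly the length in use. For *Dnmt1* it was 5220 bases and for *Kdm3a* 4753, close to their longest transcripts in GENCODE M21, of 5870 and 4853 bases. For *Kdm2b* it was 2276 bases, where GENCODE M21 gives 20 transcripts of 414 to 5180 bases. For *Setd5* it was 3120 bases with 14 transcripts of 656 to 6755. *Phf20*, at 1521 bases, and *Smarce1*, at 1067, also lay far under their longest transcripts of 5737 and 3117 bases. *Sirt3*, at 1240 of 3206 bases, and *Setd7*, at 3645 of 7411, did so too. In all, 7 of 17 genes lay under 50% of their longest transcript. This quotient is rough, and which transcripts the reads were assigned to was not measured here. An FPKM can differ between groups through the assignment of reads to transcripts as well as through their number. The part of that in their ratios was not tested.

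Promoter sequences were available from RefSeq (GRCm38.p6) for 14 of the 18 genes, in 23 windows from 250 bases before to 50 bases after a start site. Genes were matched by symbol, so the 14 include *Hdac4*, although what its row covers is uncertain. *Ash2l*, *Phf6* and *Smarce1* were among those not matched. Sequence is shown for genes with a single window and the highest or lowest ratios, *Prmt6* and *Kdm4d* among the higher and *Hdac11* and *Dnmt3b* among the lower genes. Of the 250 bases before the RefSeq start, the longest stretch outside exons of protein-coding genes in GENCODE M21 is printed. For *Hdac11* the GENCODE start lies upstream of the RefSeq start, and for *Kdm4d* exons of a neighbour reach into the window, so 100 and 134 bases are left. *Prmt7* had 0 such bases at its RefSeq start and is not shown. The stretches lie at chr3:110251000-110251249 (minus strand), chr9:14500483-14500616 (minus), chr6:91156565-91156664 (plus) and chr2:153649199-153649448 (plus). That of *Prmt6* lies in an exon of the antisense gene C130013H08Rik. Sequences read 5′ to 3′ along the gene's strand, and capitals mark CCAAT in *Kdm4d* and the loose kappa B form in *Dnmt3b*.
Prmt6: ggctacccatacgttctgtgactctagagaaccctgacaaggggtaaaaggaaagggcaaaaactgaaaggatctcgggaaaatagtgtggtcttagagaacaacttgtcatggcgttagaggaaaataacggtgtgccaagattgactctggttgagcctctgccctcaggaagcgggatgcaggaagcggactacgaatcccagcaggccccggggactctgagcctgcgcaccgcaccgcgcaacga
Kdm4d: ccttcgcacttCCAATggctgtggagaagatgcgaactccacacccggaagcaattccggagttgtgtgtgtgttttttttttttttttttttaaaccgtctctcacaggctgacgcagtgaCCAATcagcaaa
Hdac11: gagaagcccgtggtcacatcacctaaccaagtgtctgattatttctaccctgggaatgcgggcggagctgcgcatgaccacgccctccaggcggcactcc
Dnmt3b: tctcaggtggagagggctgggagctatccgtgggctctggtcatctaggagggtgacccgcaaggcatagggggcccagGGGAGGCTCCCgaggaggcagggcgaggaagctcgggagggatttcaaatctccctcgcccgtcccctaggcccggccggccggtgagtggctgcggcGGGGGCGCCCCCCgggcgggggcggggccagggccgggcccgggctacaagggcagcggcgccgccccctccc

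These 4 stretches held 13, 6, 6 and 21 CpG dinucleotides in the order shown, or 5.2, 4.48, 6.0 and 8.4 per 100 bases, so *Dnmt3b* was the richest. CCAAT was found 2 times in *Kdm4d* and 0 times in the others, and the kappa B form, whose matches overlap, 6 times in *Dnmt3b* and 0 times in the others. Over the 23 full windows, the median ratio of observed to expected CpG was 0.792, against 0.671 in 1996 windows of the other listed genes and 0.384 in all 32851 windows of the RefSeq table. A low value of 0 was found for 1 window each of *Hdac9* and *Kdm3a*. CCAAT, on either strand, was in 43.5% of the windows of chromatin genes, 37.0% of those of other listed genes and 37.4% of all windows. A loose form of the kappa B motif, on either strand, was in 34.8%, 44.4% and 32.5% of them, with 6 matches each in the *Dnmt3b* window and in both inner *Kdm2b* windows, whose GC content is 76.0% to 81.7%. The cAMP response element TGACGTCA was in 0 of the 23 windows, against 2.56% of those of other listed genes and 1.79% of all windows. The E2F forms TTTGGCGC and TTTCCCGC were in 1 of the 23, an inner window of *Dnmt1*, against 2.86% of those of other listed genes and 1.57% of all windows. Windows of 1 gene can overlap, and these matches describe letters only.

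Of 271 other chromatin genes looked for by role, 37 are listed, 19 lower and 18 higher in α-DR3, with 13 lower and 11 higher past 1.5-fold, beside 38.3% and 37% of all listed genes. Their median log2 ratio was -0.29, between that of the 18 genes and that of all listed genes. Of the 8 role lists, that of Polycomb genes had the highest share listed, 10 of 36, with 6 higher and 4 lower under every scaling tried. That is 27.8% of the list, beside 9.71% of all protein-coding genes, and the 6 of 10 higher stand beside 54.6% of all listed genes. Lists were picked with earlier results known, so nothing is read from these shares. The split of the 37 genes was 25 lower and 12 higher when the means were divided by the summed FPKM of all listed genes, which put 57.3% of all listed genes on the lower side. *Aebp2*, a cofactor of the complex that methylates histone H3 for silencing, had 22.8 FPKM in PBS and a mean 2.19-fold higher in α-DR3, and *Eed*, a core subunit of it, had 18.6 and 26.3 FPKM and was likewise named after its values were seen. *Sfmbt1* was 1.88-fold higher and *Pcgf5* 1.54-fold. *Rest*, which was counted in that list but is not a subunit of a Polycomb complex, was 1.55-fold higher. *Scml4* was 2.11-fold lower, beside *Pcgf1* above.

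Among chaperones and nucleosome-binding proteins, 7 of 48 are listed (14.6%, beside 9.71% of all protein-coding genes), 5 higher and 2 lower as deposited, where 54.6% of all listed genes were higher, and 3 higher and 4 lower after division by the summed FPKM. *Hmgn3*, which binds nucleosomes, had 26.1 FPKM in PBS and 60.4 in α-DR3, 2.32-fold higher, whereas its relative *Hmgn5* was 1.57-fold lower. *Chaf1b*, a subunit of the chaperone that loads histones at replication, had 7.23 FPKM in PBS and 3.77 in α-DR3, 1.92-fold lower. *Asf1a*, a chaperone used also outside replication, had 6.63 FPKM in PBS and 9.97 in α-DR3, and *Hmga1*, an architectural protein that binds AT-rich DNA, had 15.6 and 23.5.

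Of 48 remodeling genes looked for, 5 are listed (10.4%, beside 9.71% of all protein-coding genes), 3 lower and 2 higher where 45.4% of all listed genes were lower, or 4 lower and 1 higher after division by the summed FPKM. *Bcl11b*, a transcription factor of T cells and some innate lymphoid cells that is also found with SWI/SNF, had 2.39 FPKM in PBS and 0.80 in α-DR3, 2.99-fold lower. *Ttf2* and *Hltf*, both SNF2-type ATPases, were 1.59-fold and 1.53-fold lower, and *Baz2b* 1.51-fold higher. Of 46 acetylation genes 5 are listed (10.9%), 3 lower and 2 higher, or 4 lower and 1 higher after division by the summed FPKM. *Hat1*, which acetylates newly made histones, had 49.4 FPKM in PBS and 75.1 in α-DR3, 1.52-fold higher, and *Tada2a*, an adaptor of acetyltransferase complexes, was 2.07-fold lower. Of 19 genes around DNA methylation 4 are listed (21.1%), 2 lower and 2 higher, or 3 lower and 1 higher after that division. *Gadd45b*, an immediate stress-response gene linked to DNA demethylation, had the highest mean of all these chromatin genes, with 1299 FPKM in PBS and 764 in α-DR3, 1.70-fold lower. *Cxxc5* was 1.53-fold higher. None of the 13 other demethylase genes looked for is listed.

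**Figure D4:**
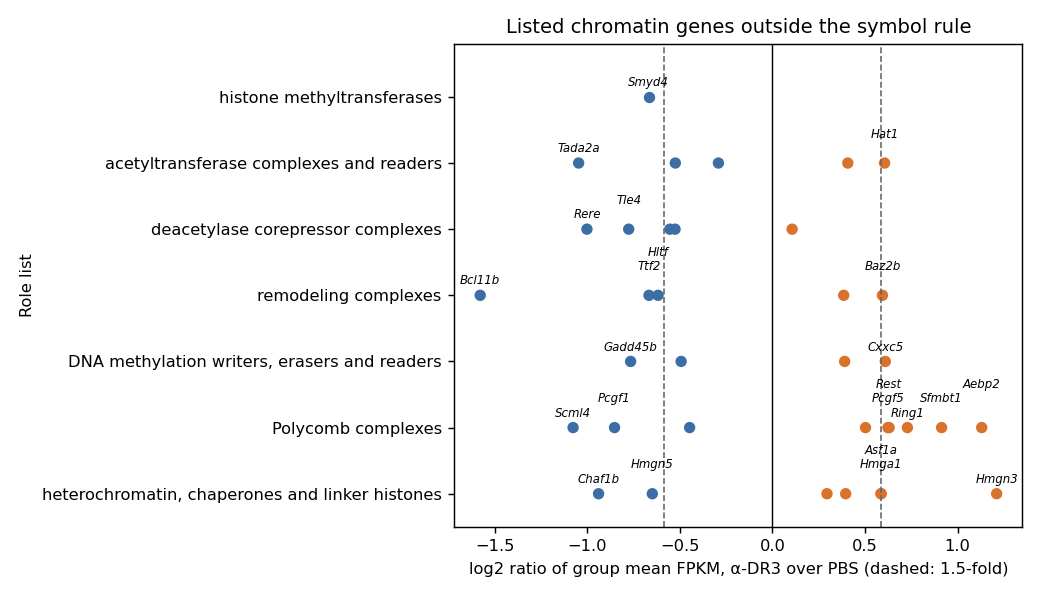
Log2 ratio of group means, α-DR3 over PBS (horizontal axis), for 36 of the 37 listed chromatin genes outside the symbol pattern, 1 row per role and 1 point per gene, with names where the ratio passed 1.5-fold (dashed lines). Polycomb genes lie on both sides. Of the 5 deacetylase complex genes, 4 lie on the lower side, where 45.4% of all listed genes lie. After division by the summed FPKM all 5 do, beside 57.3% of all listed genes.

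Markers of the sorted cells also differed between the groups, and their part in the chromatin genes' values was not tested. The counts below stand beside 9.71% of all protein-coding genes listed and 54.6% of listed genes higher. Of 9 ILC3 markers 6 are listed, 4 higher and 2 lower in α-DR3. *Il22*, the main ILC3 cytokine, had 17424 FPKM in PBS and 44537 in α-DR3, and *Ncr1*, a receptor of an ILC3 subset, had 460 and 279. Of 11 markers of myeloid and dendritic cells 3 are listed, all higher in α-DR3, with a summed mean of 39.1 FPKM in PBS and 102 in α-DR3. A single gene made up most of that sum in each group. All 5 fibroblast markers are listed and higher, with a sum of 6.58 and 16.6 FPKM. Of 5 markers of ILC1 and NK cells 4 are listed, 2 lower and 2 higher, with a sum of 801 and 1186 FPKM. *Gzmb*, at 528 in PBS and 962 in α-DR3, made up most of that sum and *Prf1* had 48.1 and 122, whereas *Tbx21* had 121 and 51.0 and *Klrb1c* was 2.07-fold lower. Of 5 ILC2 markers 2 are listed, 1 each way, *Il5* with 0.19 FPKM in PBS and 1.82 in α-DR3 and *Il1rl1* with 3.40 and 1.81. The B cell marker *Cd79b* had 10.9 and 27.2 FPKM, and none of 5 T cell or 5 epithelial markers is listed. None of the listed markers is at 0, and for markers that are not listed no level was used. In such bulk samples, fewer cells of a type and less RNA per cell cannot be told apart.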

How the data were processed

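RNA sequencing of 2 PBS and 2 α-DR3 libraries was used. According to the methods and the submitters' processing notes, reads were mapped with STAR 2.5 to GRCm38.p5, quantified with RSEM 1.2 on GENCODE M16 and compared with edgeR 3.18.1. The table's identifier versions and its gene_status column look older than that release, and which one was used is not settled here, so comparisons with GENCODE M21 lengths and overlaps are approximate. The authors deposited 1 table of that comparison. That table's group columns were taken as the authors' mean FPKM over the libraries of each group, and its log2 CPM as their mean over all 4 libraries. Whether values were rescaled between libraries before averaging was not checked. The control column is named wt and was taken as PBS, the only other group. The deposited p-value was read only to check the limit of 0.05, which 0 listed genes failed, as 0 failed the limit of 1 FPKM. Fold changes, likelihood ratios and FDR of the authors' comparison are also in the table and were not used, nor was any value of the paper's supplement. Since the file holds no value per library, the comparison planned for such values was not made.

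Ratios of the means, α-DR3 over PBS, were computed without a pseudocount, leaving out 10 genes with a mean of 0 in a group, and set against a limit of 1.5. The counting was checked on simulated data. GENCODE M21, on the same build, held 2149 of the 2179 identifiers and 17 of the 18 of chromatin genes, 187 of the 2179 with the same version number. Gene coordinates are those of GENCODE M21. Every listed gene that fits the symbol pattern is named, apart from a few items of this and other lists that are counted but not reported here, and genes of role lists are named where the ratio is at least 1.5, with exceptions marked in the text, and of marker and cell cycle lists up to 4 with the highest means. The members and lists were chosen with earlier results of these data known. Other scalings, pseudocounts, filters and limits were tried. Python 3.11.15, numpy 2.4.6, pandas 2.3.3 and matplotlib 3.10.9 were used.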

Additional observations from a re-analysis of the deposited data

How the results depend on the processing

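No library could be left out and no replicate spread is given, because the deposited file holds only a mean per group and values per library in the study's supplement were not used here. No paired analysis was possible because the deposited columns are group means, to which the replicate numbers of the labels cannot be applied. The direction of 17 of the 18 chromatin genes was the same under every scaling and pseudocount tried. The exception was *Smarce1*, whose log2 ratio became -0.0096 after division by the median ratio over listed genes and -0.12 after division by the summed FPKM. Genes higher past 1.5-fold numbered 2 under either of those scalings, 3 with sums that leave out *Il22*, and 6 as deposited, where the shares of all listed genes were 20.98% (median ratio), 18.3% (sums), 26.1% and 37%. With a limit of 2-fold, 2 were higher and 2 lower, beside 20.3% and 11.6% of all listed genes. The median log2 ratio of the 18 genes was -0.98 after division by the median ratio, -1.09 by the sums, -0.85 by the sums without *Il22*, -0.51 with a pseudocount of 1 and -0.58 with one of 0.1. Centring the sparse stretch of listed ratios gave -0.53. These scalings rest on genes selected for a difference: dividing by the median ratio shifts all log2 ratios by 0.39 and by the sums by 0.50. Of the listed genes, 52 had a log2 ratio between -0.5 and -0.25 and 253 one between 0.25 and 0.5, and the midpoint of the sparse stretch was at -0.06. The centring, the sums without *Il22* and the count without *Hdac4* were chosen after seeing the data. A filter of 5 FPKM left 13 genes, 8 lower and 5 higher. The planned removal of symbols with other roles took out no listed gene and so checked nothing.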
